A study of Mus musculus with 9 samples.

Results

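The genes described here are the expressed long intergenic noncoding RNAs (lincRNAs) of mouse granulosa cells in the hours after an ovulatory stimulus. A gene was a member when the deposited tables typed it as lincRNA and its rows, summed per gene identifier, reached 5 FPKM or more in at least 3 of the 9 libraries. FPKM is a fragment count scaled to transcript length and to the library's mapped fragments, so levels can be set beside each other between genes per length. Of 25059 gene identifiers, 1006 were typed lincRNA and 163 of these reached the threshold. The 5 genes Malat1, Neat1, Gm26917, Gm26809 and Gm12840 were left out by name, which leaves 158 members. Those 5 were set apart with their rise at 1 h known, so the share of members higher at 1 h is not that of every expressed lincRNA. Of the members, 120 carry an Ensembl identifier and 38 are assembled loci with no gene name in the tables. The member closest above the threshold had 5.02 FPKM in the lowest of its 3 highest libraries and the gene closest below it had 4.98 FPKM, so the limit runs through genes of like level.

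The samples were granulosa cells, the somatic cells around the oocyte, from Kunming mice at postnatal day 21. Mice of all 3 groups received 5 IU of PMSG, a gonadotropin that drives follicle growth. After 48 h, the cells at 0 h had no hCG, and the other cells were taken 1 h or 6 h after 5 IU of hCG, which acts through the luteinizing hormone receptor and triggers ovulation. Each time has 3 libraries made from total RNA with a TruSeq kit. No label states separate animals or pools for the libraries of a time, so the p-values reflect variation among these libraries alone, part or all of which may be technical. No library of a matched hour without hCG was used here, and time since PMSG cannot be told apart from time since hCG.

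A lincRNA is a transcript without a known protein product that is annotated between protein-coding genes. Some act on chromatin or on neighbouring genes, some carry small nucleolar RNAs or microRNAs in their introns or exons, and for most no function is known. In granulosa cells the hCG signal passes through cyclic AMP to transcription factors that bind the cyclic AMP response element, and a wave of early genes is followed by the genes of follicle rupture and luteinization.

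All 12 granulosa cell markers examined were found, with a summed level of 13555 to 14251 FPKM at 0 h, 13564 to 18873 FPKM at 1 h and 5925 to 6138 FPKM at 6 h. Summed theca and stroma markers lay at 194.0 to 307 FPKM at 0 h, 257 to 412 FPKM at 1 h and 105 to 132 FPKM at 6 h. Summed oocyte markers lay at 43.6 to 69.7 FPKM at 0 h, 56.7 to 68.7 FPKM at 1 h and 78.6 to 119 FPKM at 6 h. Endothelial, leukocyte and erythroid markers summed to 18.2 to 25.9, 12.4 to 18.9 and 133 to 202 FPKM at 0 h, 21.9 to 24.3, 15.2 to 18.6 and 89.7 to 204 FPKM at 1 h, and 28 to 36.0, 9.72 to 12.4 and 69.6 to 133 FPKM at 6 h. No marker of these 6 lists was at 0 in all libraries, and the part of cell makeup in the results was not tested. In bulk RNA, fewer cells of a type and less RNA per cell cannot be told apart. Pearson correlations of log2(FPKM + 1) over the 14535 genes tested ran from 0.982 to 0.988 within a time and from 0.874 to 0.972 between times. Each correlation within a time thus lay above each one between times.

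The members summed to 2163 to 2466 FPKM at 0 h, 2596 to 2674 FPKM at 1 h and 2680 to 2753 FPKM at 6 h. That was 0.440% to 0.536% of each library's summed FPKM, against 6.96% to 8.72% for the 5 genes left out. Of the members, 67 reached 5 FPKM in all 9 libraries. Another 26 reached it in libraries of a single time only, 4 at 0 h, 4 at 1 h and 18 at 6 h. These 26 had to differ between times to be members, so counts over the 158 are descriptions and are set beside the 67.

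At 1 h, 27 members were higher and 13 lower than at 0 h, 25.3% of the 158. Of all 14535 genes tested, 15.7% were called, 9.68% higher and 5.98% lower. Of the 10438 genes of every type at 5 FPKM or more in at least 3 libraries, the members' own limit, 17.4% were called. A call is a limma adjusted p below 0.05, and log2 changes are on log2(FPKM + 1), which understates the change of low genes. Among the 67 members at 5 FPKM in every library, 11 were higher and 5 lower, 23.9% in all. Of the 8217 genes of every type at that level, 16.6% were called, 12.3% higher and 4.36% lower. The median log2 change was 0.07 over the 158 and 0.00 over all genes tested. With each library scaled to the same summed FPKM, 24 members were higher and 25 lower, and the median of all genes shifted to -0.14, so the excess of higher members at 1 h was not seen under that scaling. After quantile normalization 25 members were higher and 14 lower.

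At 6 h, 45 members were higher and 47 lower than at 0 h, 58.2% of the 158. Of all genes tested, 56.6% were called, 28.8% higher and 27.9% lower. Among the 67, 14 were higher and 17 lower, 46.3%. Of the 8217 genes, 60.0% were called, 33.3% higher and 26.6% lower, and the difference between these shares was not tested. Against 1 h, 49 members were higher and 56 lower at 6 h, 66.5% of the 158. Of all genes tested, 53.5% were called, 26.7% higher and 26.9% lower, and of the 10438 genes 58.4% were called. Among the 67 that count was 16 higher and 21 lower, 55.2%, and of the 8217 genes 55.9% were called, 27.9% in each direction. In all, 116 members (73.4%) were called in at least 1 comparison, beside 68.2% of all genes tested, and 23 (14.6%) in all 3, beside 6.26%. Among the 67 these shares were 64.2% and 11.9%, beside 71.0% and 6.94% of the 8217 genes.

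**Figure D1:**
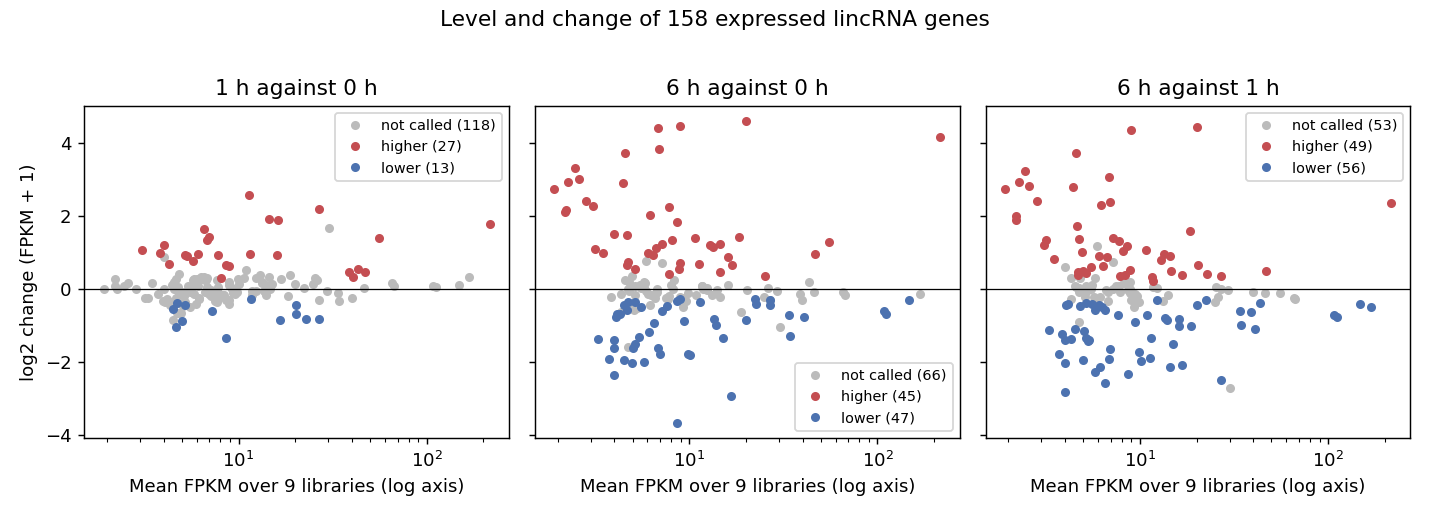
Each point is 1 of the 158 lincRNA genes, at its mean FPKM over 9 libraries (x, log axis) and its log2 change on log2(FPKM + 1) (y), for 1 h against 0 h, 6 h against 0 h and 6 h against 1 h; called genes are coloured by direction. Changes at 1 h run from -1.34 to 2.58, while those at 6 h against 0 h run from -3.67 to 4.61.

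The steps from 0 h to 1 h and on to 6 h sort the members into courses over time. A peak at 1 h, called higher than 0 h and then lower at 6 h than at 1 h, was the course of 17 members, 10.8% of the 158 beside 3.81% of all genes tested. It was the course of 7 of the 67 members at 5 FPKM throughout, 10.4% beside 4.50% of the 8217 genes. Against 0 h, the 6 h level of the 17 was higher for 3, lower for 6 and not called for 8. The reverse course, a dip at 1 h, was that of 6 members, 3.80% beside 2.37% of all genes tested, and of 4 of the 67, 5.97% beside 1.81% of the 8217 genes. Another 35 members (22.2%, beside 21.6% of all genes tested) were called higher and 36 (22.8%, beside 21.9%) lower only in the second step, shares near those of all genes. Higher in both steps were 8 (5.06%, beside 2.72%), and lower in both were 3 (1.90%, beside 1.20%). The 1 h libraries enter both steps, so a peak or a dip rests on the same 3 values.

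**Figure D2:**
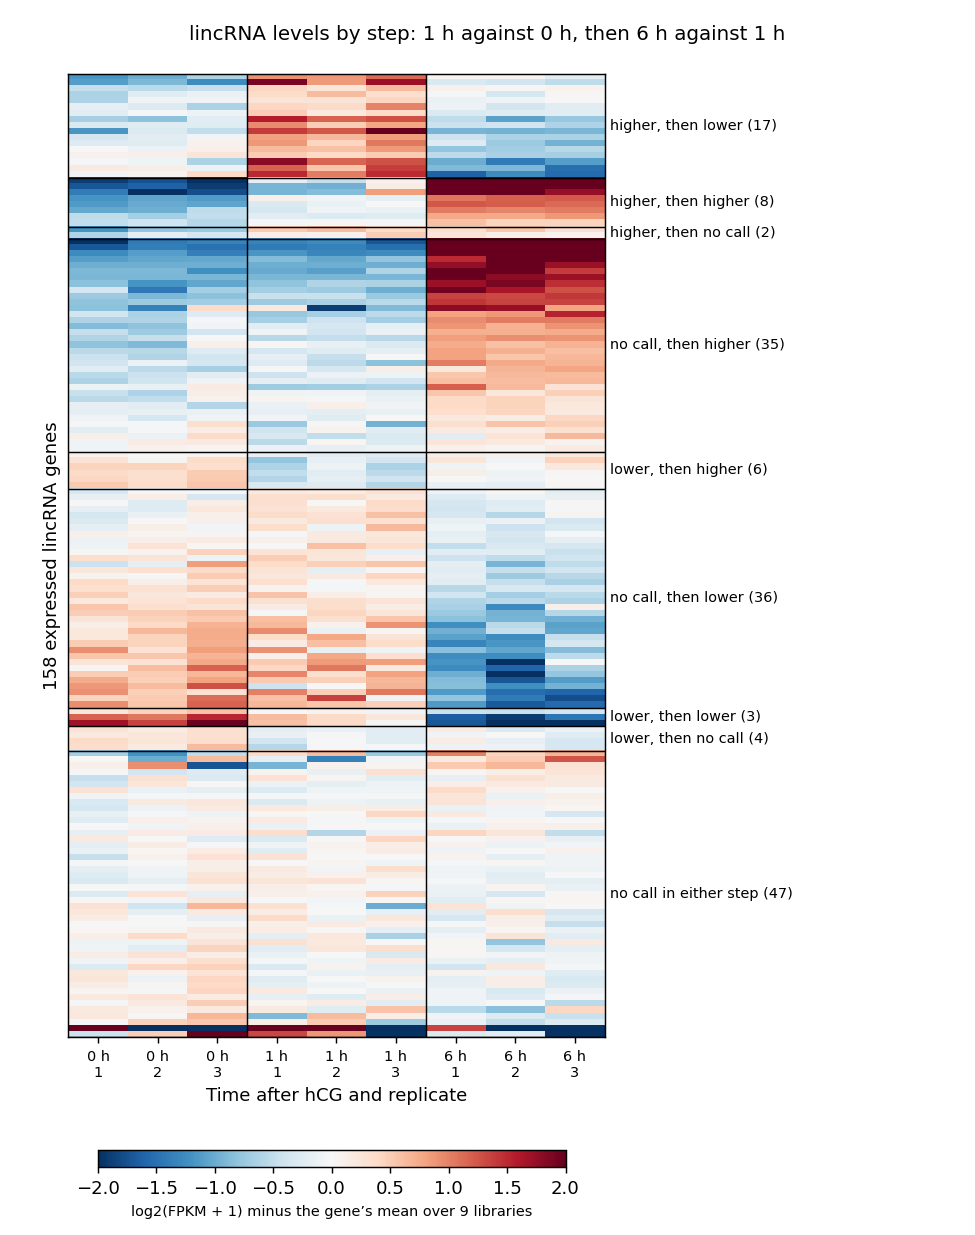
Each row is 1 of the 158 lincRNA genes and each column a library, coloured by log2(FPKM + 1) minus the gene's own mean over 9 libraries, capped at 2 either way. Rows are grouped by the calls at 1 h against 0 h and then at 6 h against 1 h, with the number of genes in each group; the 17 peaking genes are red in all 3 columns of 1 h.

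**Figure D3:**
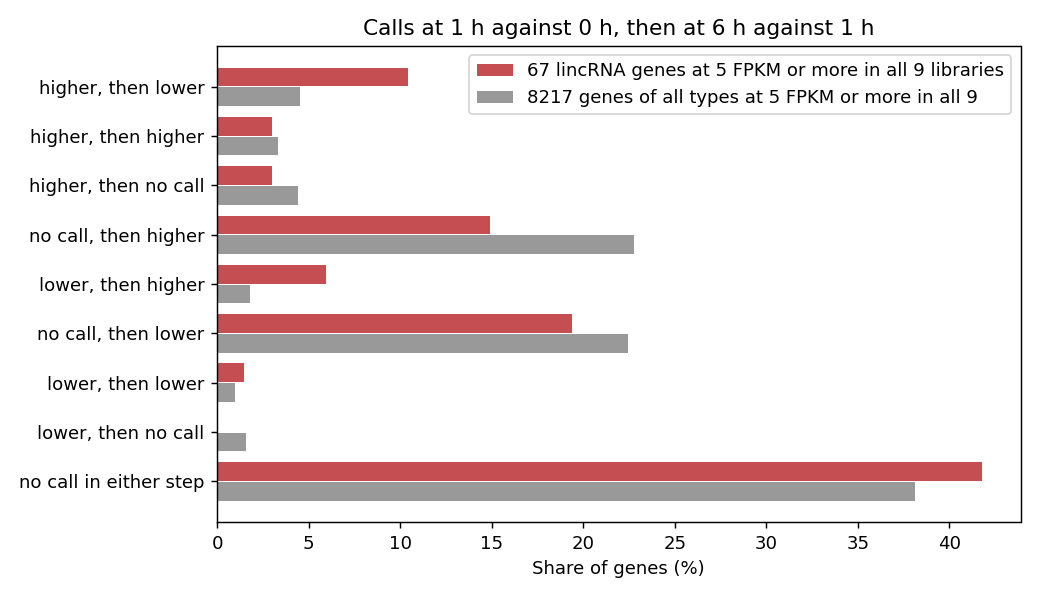
Share of genes (x, percent) with each pair of calls, for the 67 lincRNA genes at 5 FPKM or more in all 9 libraries (upper bar of each pair) and the 8217 genes of every type at that level (lower bar). The first pair of bars, higher and then lower, stands at 10.4% and 4.50%.

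The best known of the peaking members was Lincpint (annotated as Lncpint at chr6:31082565-31220488, minus strand, mm10), which is induced by p53 and binds the Polycomb complex PRC2. Lincpint had 6.65, 5.88 and 9.32 FPKM at 0 h, 35.1, 26.4 and 28.6 FPKM at 1 h and 7.53, 4.78 and 6.16 FPKM at 6 h. The 1 h libraries were all far above the others, and the 6 h and 0 h values overlapped. Its log2 change was 1.92 (SE 0.18, adjusted p = 0.000111) at 1 h against 0 h and -2.13 (SE 0.18, adjusted p = 1.04e-05) at 6 h against 1 h. At 6 h against 0 h the log2 change was -0.21 (adjusted p = 0.357).

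Gm27019 (chr6:31063092-31063495, minus strand) lies beyond the 3′ end of Lincpint on the same strand and shares its last 2 exon bases with the hairpin gene Mir29b-1, with Mir29a following it. Its hairpins were looked up within 1000 bases of the gene after its values had been seen. The mature miR-29 strands below are shown because these small RNAs, known for repressing collagen and other matrix genes, come from the genomic stretch next to this peaking transcript. Capitals mark the seed, bases 2 to 8, which is AGCACCA in both. Sequences are from RefSeq, build GRCm38.p6.
miR-29a-3p: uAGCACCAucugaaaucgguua
miR-29b-3p: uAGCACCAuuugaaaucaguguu
Gm27019 had 5.63, 6.42 and 8.5 FPKM at 0 h, 26.8, 26 and 31.6 FPKM at 1 h and 14.4, 14.2 and 11.8 FPKM at 6 h. All 1 h values lay above all 6 h values, and these lay above all 0 h values. On the log2 scale it changed by 1.90 (SE 0.14, adjusted p = 2.13e-05) at 1 h against 0 h, 0.89 (SE 0.14, adjusted p = 0.000413) at 6 h against 0 h and -1.01 (SE 0.14, adjusted p = 0.000225) at 6 h against 1 h. The miRNAs themselves were not measured in these tables. Copg2, a coatomer gene and the nearest tested protein-coding gene by start, stood at -0.04 (adjusted p = 0.759) at 1 h against 0 h and fell at 6 h, with -1.05 (adjusted p = 3.48e-06) against 0 h.

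The members with the highest log2 changes at 1 h were Gm26586 and Gm37350, for which no function is known. Gm26586 (chr8:72137389-72140820, minus strand) had 3.11, 3.77 and 2.65 FPKM at 0 h, 32, 15 and 28.2 FPKM at 1 h and 6.16, 5.79 and 5.23 FPKM at 6 h. The 1 h values lay apart from both other times, and the second 1 h library was the lowest of them. It changed on the log2 scale by 2.58 (SE 0.23, adjusted p = 8.04e-05) at 1 h against 0 h and -1.89 (SE 0.23, adjusted p = 0.000112) at 6 h against 1 h. The call of 0.69 at 6 h against 0 h (adjusted p = 0.0283) ended under 6 alternatives, among them a pseudocount of 5.

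Gm37350 (chr3:5880832-5885503, minus strand) had 7.78, 15.3 and 13.1 FPKM at 0 h, 51, 45.4 and 81.6 FPKM at 1 h and 9.33, 9.26 and 9.48 FPKM at 6 h. Each 1 h library was above every other library, and the 6 h values fell within the 0 h range. This gave a log2 change of 2.21 (SE 0.24, adjusted p = 0.000281) at 1 h against 0 h and -2.50 (SE 0.24, adjusted p = 2.39e-05) at 6 h against 1 h. E330017L17Rik (chr4:129906216-129919787, plus strand) had 4.49, 4.32 and 2.62 FPKM at 0 h, 18.6, 11.5 and 12.6 FPKM at 1 h and 1.84, 1.13 and 1.62 FPKM at 6 h. It reached the threshold only through the 1 h libraries, so its higher level there was a condition of membership. The 6 h values lay below the 0 h values without overlap, with a log2 change of -0.91 (SE 0.21, adjusted p = 0.00438). That sign turned to 0.46 (adjusted p = 0.342) when only the most abundant of its 4 rows was used.

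Smaller peaks were those of Gm26699, Gm26825, Gm17491 and Gm26848. Gm26699 had 41, 41.4 and 46 FPKM at 0 h, 55.7, 51.4 and 55.2 FPKM at 1 h and 26.7, 24.2 and 24.1 FPKM at 6 h, and the 3 times did not overlap. Its log2 change was 0.33 (SE 0.07, adjusted p = 0.0126) at 1 h against 0 h and -0.75 (SE 0.07, adjusted p = 1.57e-05) at 6 h against 0 h. Gm26825 averaged 36.1 ± 7.67, 53.2 ± 3.71 and 40.7 ± 2.07 FPKM at 0, 1 and 6 h (SD, n = 3 each), with a log2 change of 0.57 at 1 h against 0 h (adjusted p = 0.0211). Gm17491 averaged 8.97 ± 0.979, 18.6 ± 1.33 and 6.78 ± 0.697 FPKM at 0, 1 and 6 h (SD, n = 3 each), with 0.98 (adjusted p = 0.000201). Gm26848 averaged 11.7 ± 2.03, 23.8 ± 6.27 and 12.7 ± 1.27 FPKM at 0, 1 and 6 h (SD, n = 3 each), with 0.95 (adjusted p = 0.00579). These 4 were among the 7 peaking members at 5 FPKM in every library, whose other members are Gm27019, Gm37350 and 1 assembled locus. The body of Gm17491 overlaps that of the coding gene Slc20a2 on the same strand without shared exon bases. Slc20a2 had the same course, with 0.82 at 1 h against 0 h and -0.44 at 6 h against 1 h, both called. Of the exon bases of Gm26825, 91.8% lie opposite the pseudogene Gm15459, and 99.7% of those of Gm26699 lie opposite Luc7l2. Whether reads of these genes entered the members' levels was not tested.

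The highest member at 6 h was Gm20186 (chr6:18845910-18848207, minus strand). It had 30.2, 33.3 and 21.8 FPKM at 0 h, 99.9, 82.1 and 120.4 FPKM at 1 h and 502, 562 and 494 FPKM at 6 h. The 3 times did not overlap, and the order was the same in each step. The log2 change was 1.79 (SE 0.16, adjusted p = 8.76e-05) at 1 h against 0 h and 4.16 (SE 0.16, adjusted p = 7.43e-08) at 6 h against 0 h. Of its exon bases, 855 (81.4%) lie opposite exons of Gm26809, 1 of the 5 genes left out, whose log2 changes were 3.21 at 1 h against 0 h and 4.76 at 6 h against 0 h. Whether reads were counted by strand is not given in the sources used here, so reads of the pair cannot be told apart.

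Late risers were low until 6 h. Gm12648 (chr4:94089576-94425588, minus strand) had 0.743, 1.65 and 1.8 FPKM at 0 h, 1.8, 1.97 and 1.16 FPKM at 1 h and 60.7, 63.2 and 47.1 FPKM at 6 h. The 6 h libraries stood apart and the 0 h and 1 h values overlapped. The log2 change at 6 h against 0 h was 4.61 (SE 0.20, adjusted p = 1.34e-07). Gm20125 (chr10:16906427-17095807, minus strand) had 0.0806, 0.344 and 0.249 FPKM at 0 h, 0.32, 0.379 and 0.238 FPKM at 1 h and 25.7, 26.1 and 26.9 FPKM at 6 h. Again the 6 h libraries alone were high, with a log2 change of 4.48 (SE 0.11, adjusted p = 5.49e-09) at 6 h against 0 h. Both genes became members through the 6 h libraries only, so these changes describe what the rule selected.

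Gm15767 (chr6:147242527-147243801, minus strand) had 0.62, 0 and 0.249 FPKM at 0 h, 1.25, 1.34 and 6.65 FPKM at 1 h and 21.3, 17.6 and 13.4 FPKM at 6 h. The third 1 h library was well above the other two, all 6 h libraries were higher still, and 1 library at 0 h was listed at 0. It changed on the log2 scale by 3.84 (SE 0.42, adjusted p = 4.19e-05) at 6 h against 0 h. The call at 1 h against 0 h (1.44 (SE 0.42, adjusted p = 0.0457)) ended under 14 alternatives, among them the fit without the third 1 h replicate, at 0.86 (adjusted p = 0.0568). The nearest tested protein-coding start, 20382 bases away on the same strand, is that of Pthlh, which encodes parathyroid hormone-related protein. Pthlh averaged 0.15 ± 0.0357, 7.61 ± 0.831 and 12.6 ± 1.86 FPKM at 0, 1 and 6 h (SD, n = 3 each), with log2 changes of 2.90 (adjusted p = 6.56e-07) at 1 h and 3.56 (adjusted p = 4.66e-08) at 6 h against 0 h.

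**Figure D4:**
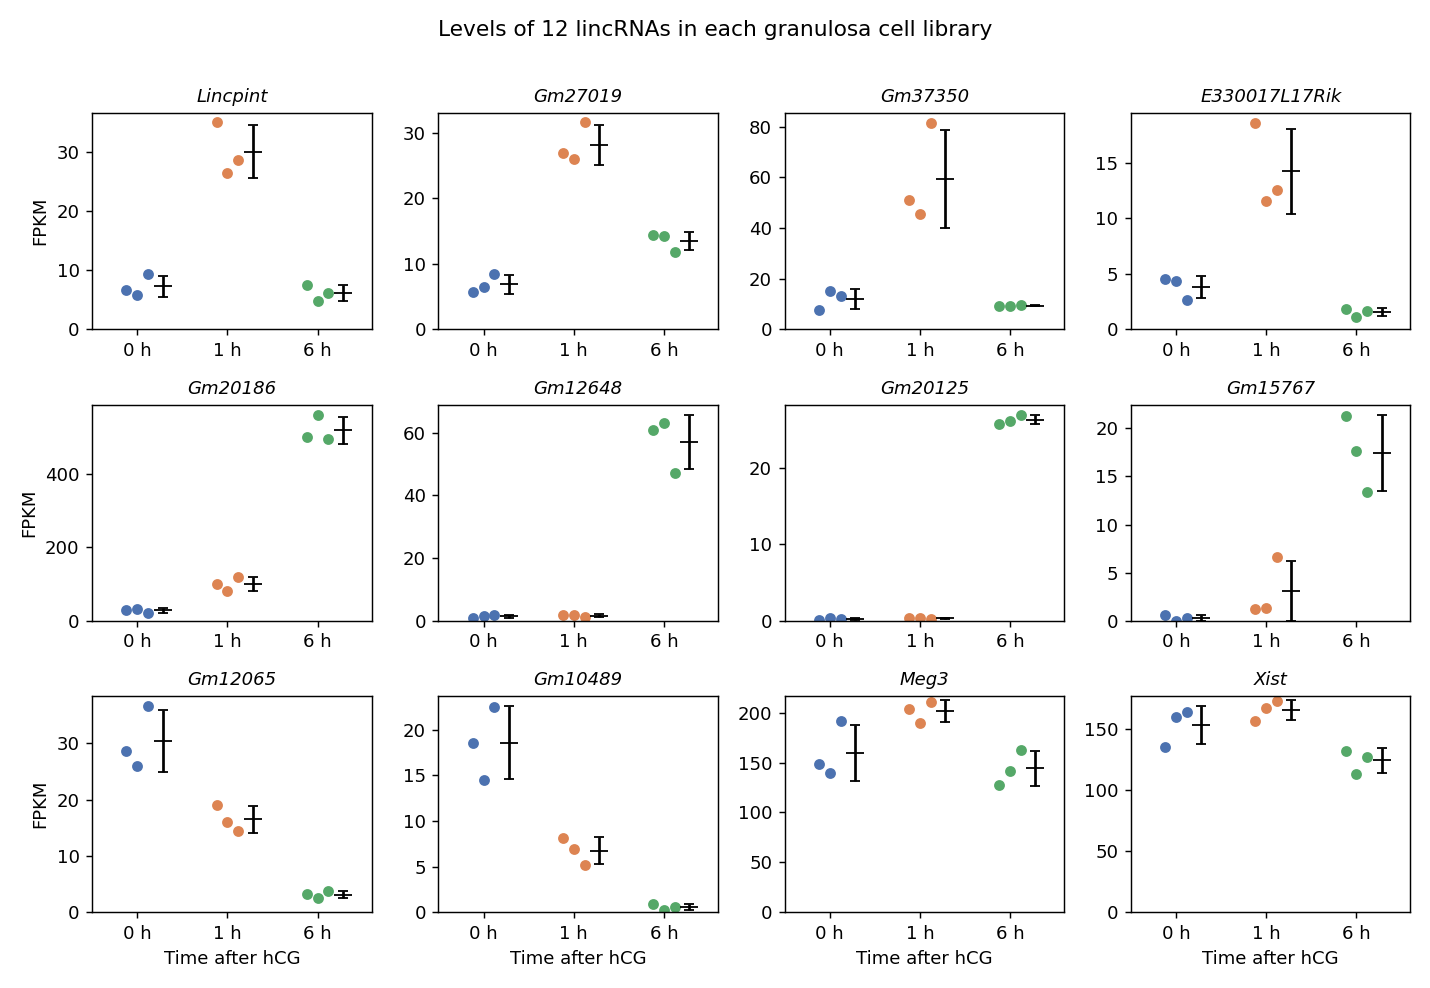
FPKM (y) of 12 lincRNA genes in each library at 0 h, 1 h and 6 h after hCG (x); points are libraries, and the line with bars is the mean and SD of 3 libraries. The upper row peaks at 1 h, the middle row is highest at 6 h, and Gm12065 and Gm10489 in the lower row are lowest at 6 h.

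The steepest fall was that of Gm10489 (chrX:10707176-10717242, minus strand), a gene of unknown function whose body overlaps that of Mid1ip1, a promoter of fatty acid synthesis, on the opposite strand without shared exon bases. Gm10489 had 18.6, 14.5 and 22.5 FPKM at 0 h, 8.08, 6.95 and 5.15 FPKM at 1 h and 0.863, 0.232 and 0.521 FPKM at 6 h. Each time lay below the one before it without overlap. On the log2 scale it changed by -1.34 (SE 0.21, adjusted p = 0.00222) at 1 h against 0 h and -3.67 (SE 0.21, adjusted p = 5.19e-07) at 6 h against 0 h. Mid1ip1 averaged 357 ± 37.7, 371 ± 49.6 and 90.3 ± 2.85 FPKM at 0, 1 and 6 h (SD, n = 3 each). It was not called at 1 h (log2 change 0.05, adjusted p = 0.802) and fell at 6 h against 0 h (-1.97, adjusted p = 4.53e-07).

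Gm12065 (chr11:24198737-24202624, minus strand) had 28.7, 26 and 36.6 FPKM at 0 h, 19.1, 16.1 and 14.4 FPKM at 1 h and 3.16, 2.46 and 3.81 FPKM at 6 h. It too was lower in each step without overlap, with a log2 change of -0.84 (SE 0.16, adjusted p = 0.00693) at 1 h against 0 h and -2.92 (SE 0.16, adjusted p = 4.52e-07) at 6 h against 0 h. The nearest tested start is that of Bcl11a, a zinc-finger repressor, 124568 bases away on the opposite strand, with -1.01 (adjusted p = 3e-05) at 6 h against 0 h. Gm4926 had 6.62, 4.93 and 8.1 FPKM at 0 h, 5.35, 4.9 and 4.6 FPKM at 1 h and 0.832, 0.259 and 0.362 FPKM at 6 h, high at 0 h and 1 h and low at 6 h, with a log2 change of -2.34 (SE 0.18, adjusted p = 4.54e-06) at 6 h against 0 h. RP23-281H4.12 (now Gm44386), Gm28175 and Gm21807 fell at 6 h against 0 h by 2.02, 1.94 and 1.81 on the log2 scale (adjusted p = 0.00102, 0.000171 and 0.00048). Their 6 h libraries did not overlap those at 0 h.

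A dip at 1 h was the course of 2310031A07Rik and 1010001N08Rik, both transcribed against a protein-coding neighbour. The first (chr11:46440362-46447248, minus strand) lies opposite Med7, a Mediator subunit, and had 29.1, 27.7 and 31.6 FPKM at 0 h, 15.4, 18.7 and 14.9 FPKM at 1 h and 23.9, 20.5 and 22.4 FPKM at 6 h. The 3 times did not overlap, with 1 h lowest. This gave a log2 change of -0.82 (SE 0.10, adjusted p = 0.00045) at 1 h against 0 h and 0.43 (SE 0.10, adjusted p = 0.00454) at 6 h against 1 h. Med7 had -0.75 (adjusted p = 0.0151) at 1 h against 0 h, and 61.5% of the lincRNA's exon bases lie opposite its exons. Med7 was not called at 6 h against 1 h (0.10, adjusted p = 0.644) and stayed lower at 6 h than at 0 h (-0.65, adjusted p = 0.00763).

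1010001N08Rik lies opposite Gata6, a transcription factor of granulosa cells, with 3.06% of its exon bases shared. It had 35, 32.7 and 37.8 FPKM at 0 h, 17.1, 22.7 and 19.5 FPKM at 1 h and 26.1, 24.7 and 25.9 FPKM at 6 h. The 3 times did not overlap, and 1 h was lowest. Its log2 change was -0.81 (SE 0.10, adjusted p = 0.000526) at 1 h against 0 h, and that of Gata6 was -0.60 (adjusted p = 0.000863). At 6 h against 1 h the lincRNA rose by 0.36 (adjusted p = 0.0111) and Gata6 by 0.60 (adjusted p = 0.000183). The lincRNA's call ended, at 0.11 (adjusted p = 0.297), when only its more abundant row was used.

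Gm16973 also dipped, at 6.73 ± 0.309, 3.32 ± 0.946 and 5.0 ± 0.636 FPKM at 0, 1 and 6 h (SD, n = 3 each), with a log2 change of -0.86 (adjusted p = 0.00448) at 1 h against 0 h. Its call at 6 h against 1 h (0.49, adjusted p = 0.0192) ended when any 1 of 3 libraries was left out. AI480526 averaged 9.57 ± 1.67, 6.0 ± 1.42 and 6.0 ± 0.649 FPKM at 0, 1 and 6 h (SD, n = 3 each). Its call at 1 h against 0 h (-0.60, adjusted p = 0.039) ended under 10 alternatives.

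Small nucleolar RNAs guide the modification of ribosomal and other RNAs, and the list of their host genes holds 5 members. None was called higher and 2 lower at 1 h against 0 h, none higher and 3 lower at 6 h against 0 h, and 1 higher and 3 lower at 6 h against 1 h. The shares called lower among all genes tested were 5.98%, 27.9% and 26.9%. A member outside the list, 2700038G22Rik, carries Snord93 within its body on the same strand and was called in no comparison, at 4.05 ± 1.46, 4.68 ± 0.984 and 4.93 ± 0.945 FPKM at 0, 1 and 6 h (SD, n = 3 each). Snhg20 had 24.2, 20.4 and 25.4 FPKM at 0 h, 10.9, 17.4 and 14.7 FPKM at 1 h and 23.4, 18.6 and 27.3 FPKM at 6 h. The 1 h values lay below all others, and the 6 h and 0 h values overlapped. The log2 change was -0.68 (SE 0.17, adjusted p = 0.0276) at 1 h against 0 h, a call that ended under 5 alternatives, and 0.66 (SE 0.17, adjusted p = 0.01) at 6 h against 1 h.

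Snhg18 (chr15:32240565-32244662, minus strand) had 23, 27 and 29.9 FPKM at 0 h, 19.3, 20.5 and 18.5 FPKM at 1 h and 14.2, 14 and 14.7 FPKM at 6 h. Each time lay below the one before it without overlap, with a log2 change of -0.43 (SE 0.09, adjusted p = 0.0135) at 1 h against 0 h and -0.85 (SE 0.09, adjusted p = 4.22e-05) at 6 h against 0 h. The 1 h call ended without the third 1 h replicate, at -0.39 (adjusted p = 0.0548). Sema5a, a semaphorin gene whose start lies 148 bases away on the opposite strand, fell at 6 h by 0.86 against 0 h (adjusted p = 0.000182) and was not called at 1 h (-0.07, adjusted p = 0.735).

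Epb41l4aos had 19.7, 16.6 and 15.9 FPKM at 0 h, 14.8, 17 and 14.6 FPKM at 1 h and 7.94, 4.84 and 14 FPKM at 6 h. The 6 h values were the lowest and the most spread, with a log2 change of -0.99 (SE 0.27, adjusted p = 0.0107) at 6 h against 0 h. Snhg12 averaged 23.4 ± 0.363, 24.2 ± 2.22 and 19.5 ± 1.99 FPKM at 0, 1 and 6 h (SD, n = 3 each), and its call at 6 h against 0 h (-0.26, adjusted p = 0.0344) ended under 6 alternatives. The lower calls of Snhg12 and Epb41l4aos at 6 h against 1 h (adjusted p = 0.0188 and 0.0254) each ended under 5 alternatives. Snhg6 averaged 25 ± 3.91, 27.7 ± 3.1 and 22.2 ± 7.5 FPKM at 0, 1 and 6 h (SD, n = 3 each) and was called in no comparison.

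Of the listed imprinted and X-inactivation members, Meg3 and Xist were among the 8 members of highest mean level, and Ftx was far lower than both. Meg3 (chr12:109541001-109571726, plus strand), expressed from the maternal copy of its imprinted cluster, had 148, 139 and 191 FPKM at 0 h, 203, 190.1 and 211 FPKM at 1 h and 128, 142 and 163 FPKM at 6 h. The 6 h values lay below all 1 h values and overlapped those at 0 h. It changed on the log2 scale by -0.49 (SE 0.12, adjusted p = 0.00811) at 6 h against 1 h. The log2 changes against 0 h were 0.35 (adjusted p = 0.0882) at 1 h and -0.14 (adjusted p = 0.359) at 6 h. Rtl1, the tested protein-coding gene with the nearest start and a paternally expressed member of that cluster, was higher at 1 h than at 0 h (0.73, adjusted p = 0.00893) and lower at 6 h than at 1 h (-1.06, adjusted p = 0.000224).

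Xist (chrX:103460366-103483254, minus strand), the RNA that coats the inactive X chromosome, had 135, 159.6 and 164 FPKM at 0 h, 157, 167 and 173 FPKM at 1 h and 132, 113 and 127 FPKM at 6 h. The 6 h values were below all others. On the log2 scale it changed by -0.41 (SE 0.09, adjusted p = 0.00349) at 6 h against 1 h and -0.30 (SE 0.09, adjusted p = 0.0172) at 6 h against 0 h. The call against 0 h ended when any 1 of 3 libraries was left out, with values of -0.26, -0.25 and -0.23. Ftx, an activator of Xist, averaged 8.24 ± 1.77, 6.88 ± 0.519 and 8.85 ± 0.705 FPKM at 0, 1 and 6 h (SD, n = 3 each) and was called in no comparison.

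Pvt1 lies 52595 bases from the start of Myc, a growth regulator amplified with it in tumours. Pvt1 had 6.81, 9.18 and 7.65 FPKM at 0 h, 7.37, 11.7 and 9.77 FPKM at 1 h and 4.96, 5.79 and 5.65 FPKM at 6 h, lowest at 6 h, where no value reached those of the other times. This gave a log2 change of -0.70 (SE 0.16, adjusted p = 0.00409) at 6 h against 1 h. The call at 6 h against 0 h (-0.45, adjusted p = 0.0313) ended under 7 alternatives. Myc averaged 25.3 ± 2.93, 26.1 ± 8.21 and 16 ± 1.63 FPKM at 0, 1 and 6 h (SD, n = 3 each), with -0.63 (adjusted p = 0.015) at 6 h against 1 h.

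Mir17hg (chr14:115042879-115046727, plus strand) is the primary transcript of the miR-17 to miR-92 cluster, which is known for driving proliferation. It carries 6 hairpins in its body on its own strand. The mature strands below are grouped by seed, in capitals, because they are cut from this transcript, whose own level is given below, while the small RNAs were not measured; miR-17-5p and miR-20a-5p share AAAGUGC and both miR-19 strands share GUGCAAA. They are from RefSeq, build GRCm38.p6.
miR-17-5p: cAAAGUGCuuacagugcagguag
miR-20a-5p: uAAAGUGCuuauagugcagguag
miR-18a-5p: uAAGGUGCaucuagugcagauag
miR-19a-3p: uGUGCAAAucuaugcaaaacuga
miR-19b-3p: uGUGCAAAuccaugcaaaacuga
miR-92a-3p: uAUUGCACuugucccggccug
Mir17hg had 4.85, 6.23 and 6.73 FPKM at 0 h, 7.26, 7.95 and 7.91 FPKM at 1 h and 5.49, 5.64 and 4.48 FPKM at 6 h. The 1 h values lay above all others, and the 6 h and 0 h values overlapped. The log2 change was -0.49 (SE 0.12, adjusted p = 0.00786) at 6 h against 1 h, and at 1 h against 0 h it was 0.34 (adjusted p = 0.0985). Over all members with coordinates, 6 carry 12 hairpins on their own strand within the body, Meg3, Ftx and Snhg20 among them.

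Other members of high level were AU020206, Gm17275 and Gm28268, with no known function. AU020206 averaged 119 ± 19.1, 128 ± 18.2 and 77.3 ± 3.56 FPKM at 0, 1 and 6 h (SD, n = 3 each) and fell at 6 h against 0 h (log2 change -0.61 (SE 0.13, adjusted p = 0.00266)). Gm17275 averaged 67.2 ± 0.492, 72.3 ± 1.96 and 61.2 ± 11.9 FPKM at 0, 1 and 6 h and Gm28268 64.3 ± 12, 71.4 ± 1.88 and 60.8 ± 4.35 FPKM at 0, 1 and 6 h (SD, n = 3 each), and both were called in no comparison. Their changes at 6 h against 0 h were -0.15 (adjusted p = 0.302) and -0.07 (adjusted p = 0.649). Of the exon bases of Gm17275, 25.0% lie opposite H3f3a, which averaged 243.6 FPKM over the 9 libraries. Whether reads of H3f3a entered the level of Gm17275 was not tested.

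Although typed as intergenic in the tables, many members touch other genes in the annotation GENCODE M21 (mm10). Of the 119 members found there, 103 are typed lincRNA, 10 antisense and 1, Kantr, protein-coding. In all, 65 share exon bases with another gene, 45 of them with a protein-coding gene and 42 with one on the opposite strand. The other 54 share none, and of these 9 were higher and 4 lower at 1 h against 0 h, 12 higher and 19 lower at 6 h against 0 h, and 10 higher and 23 lower at 6 h against 1 h. These are 24.1%, 57.4% and 61.1% of the 54, beside 15.7%, 56.6% and 53.5% of all genes tested. Of the 10438 genes at 5 FPKM or more in at least 3 libraries, 17.4%, 61.5% and 58.4% were called.

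Members and opposite-strand coding genes that both passed the expression filter formed 41 pairs of 40 members. Both partners were called in 7 pairs at 1 h against 0 h, in 16 at 6 h against 0 h and in 15 at 6 h against 1 h, in the same direction every time. The member itself was called in 12, 19 and 22 pairs, in the same order of comparisons. Tested protein-coding genes were also paired with nearest coding neighbours whose starts lay within 5000 bases, whether overlapping or not. Where both of these were called, they moved the same way in 92.3%, 63.2% and 66.5%. The member's mean FPKM was below its partner's in 33 of the 41. In 18 pairs at least 80% of the member's exon bases were shared, and of these both were called, in the same direction, in 4, 9 and 8 pairs of the same 3 comparisons. The strand question raised for Gm20186 holds for every such pair, and its part in these counts was not tested.

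**Figure D5:**
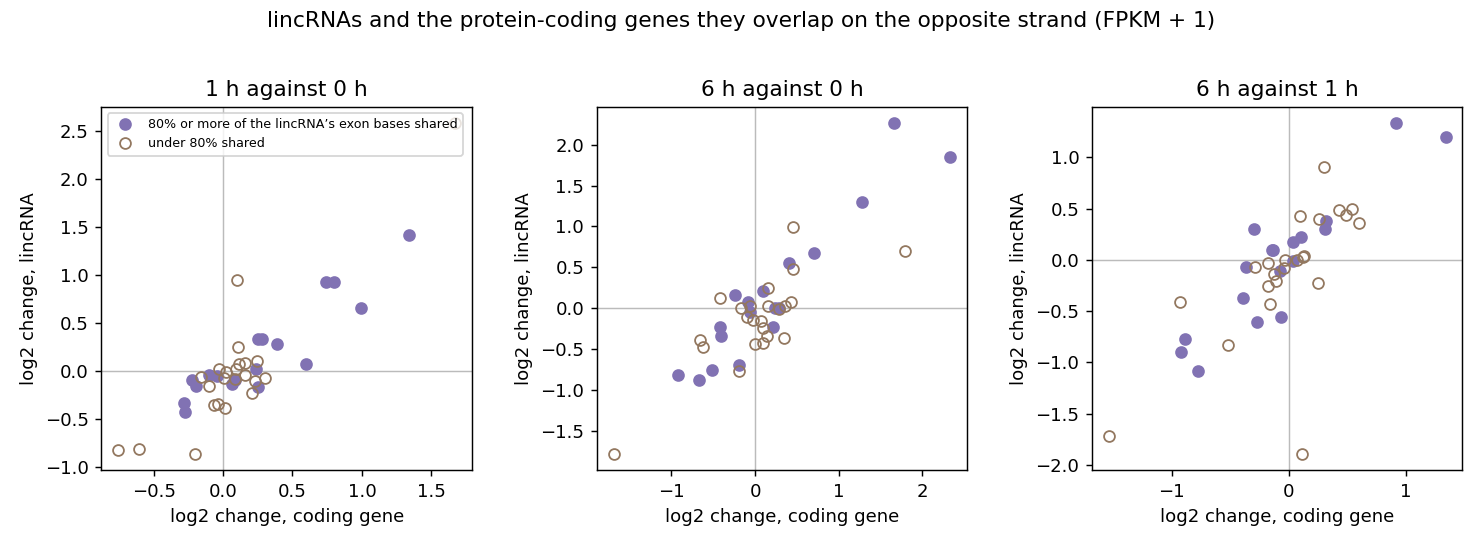
Log2 change of each lincRNA (y) against that of the protein-coding gene on its opposite strand (x), on log2(FPKM + 1), in 41 pairs and 3 comparisons; filled points have 80% or more of the lincRNA's exon bases shared, open points less. Gm26669 with Zfp36l1 and Gm26586 with Tpm4 are the 2 points farthest right at 1 h, at 1.34 and 1.67 on the x axis.

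Gm26669 (chr12:80108034-80113000, plus strand) lies opposite Zfp36l1, which encodes a protein that destabilizes AU-rich messenger RNAs, with 92.5% of its exon bases shared. Gm26669 had 21.5, 28.8 and 30.1 FPKM at 0 h, 72.9, 78.5 and 66.4 FPKM at 1 h and 64.3, 74.2 and 62.9 FPKM at 6 h. The 1 h and 6 h values overlapped, and both lay above all 0 h values. Its log2 change was 1.42 (SE 0.12, adjusted p = 6.93e-05) at 1 h against 0 h, and that of Zfp36l1 was 1.34 (adjusted p = 2.02e-05).

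Gm26778 lies wholly opposite Kctd12, a subunit of GABA-B receptors, and averaged 2.42 ± 0.134, 5.53 ± 0.662 and 15.4 ± 0.639 FPKM at 0, 1 and 6 h (SD, n = 3 each). The log2 change was 2.26 for Gm26778 and 1.66 for Kctd12 at 6 h against 0 h (adjusted p = 1.32e-07 and 3.11e-06). Gm28592 averaged 3.68 ± 0.954, 6.32 ± 0.728 and 15.7 ± 0.324 FPKM at 0, 1 and 6 h (SD, n = 3 each) and changed by 1.85, beside 2.33 for Phlda1 (adjusted p = 3.34e-06 and 9.61e-07). Falling pairs at 6 h against 0 h were Gm26883 with the zinc-finger gene Tshz2, at -0.88 and -0.68, and Gm26527 with the arylsulfatase gene Arsb, at -0.82 and -0.93. The peaking Gm26699, described above, lies opposite Luc7l2, a splicing-related gene that changed by -0.52 at 6 h against 0 h. Luc7l2 was not called at 1 h against 0 h (0.25, adjusted p = 0.0724), where Gm26699 was called higher.

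In other pairs the calls differed. Gm26586 shares 7.68% of its exon bases with Tpm4, a tropomyosin gene. Both rose at 1 h, with Tpm4 at 1.67 (adjusted p = 9.23e-05). At 6 h against 1 h Gm26586 fell by 1.89 on the log2 scale while Tpm4 stood at 0.12 (adjusted p = 0.549). Gm26649, wholly opposite the transcription factor gene Klf7, stood at 0.07 (adjusted p = 0.841) at 1 h against 0 h, where Klf7 rose by 0.60 (adjusted p = 0.00755). The difference between partners was not tested.

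Each of the 119 members with coordinates was also set beside the tested protein-coding gene with the nearest start. Both were called in 10 pairs at 1 h against 0 h, 39 at 6 h against 0 h and 47 at 6 h against 1 h, and in the same direction in 10, 30 and 37 of them. For tested protein-coding genes and their own nearest coding neighbours, both were called in 387, 4333 and 3883 of 12564 pairs. These moved the same way in 82.4%, 60.4% and 61.7%. Where a member shares exon bases with its neighbour, the strand question above holds here too. Among the 54 members that share no exon base, the same direction held in 5 of 5, 14 of 17 and 17 of 24 such pairs. Some of the 54 still overlap the body of a coding gene, among them Gm17491, Gdap10 and Gm26601 on the same strand. The part of reads from such genes in these counts was not tested.

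RefSeq promoter windows, from 250 bases before to 50 after the start, matched 37 members within 1000 bases of their annotated start. The full cyclic AMP response element TGACGTCA was in 5 of the 37 (13.5%), beside 1.79% of 32851 windows in the table and 3.16% of the 10224 windows of genes at 5 FPKM or more. TGACG on either strand, which the full element contains, was in 18 (48.6%), beside 20.8% and 32.6%. The AP-1 motif TGANTCA was in 2 (5.41%, beside 7.81% and 4.64%), the NR5A motif CAAGGTCA in 2 (5.41%, beside 1.56% and 0.978%), the NBRE AAAGGTCA in 1 and the C/EBP palindrome TTGCGCAA in none. CCAAT was in 19 (51.4%, beside 37.4% and 38%). Motifs were searched on both strands, a match describes letters in a window and no binding, and the difference in shares was not tested.

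The 5 members with the full element were Meg3, C030037D09Rik, B230354K17Rik, Gm14149 and 1300002E11Rik. They did not share a course: C030037D09Rik was higher at 1 h than at 0 h, B230354K17Rik was lower, and the other 3 were not called at 1 h. C030037D09Rik had 5.25, 7.38 and 6.57 FPKM at 0 h, 9.56, 9.21 and 12.7 FPKM at 1 h and 10.5, 9.58 and 9.07 FPKM at 6 h, with a log2 change of 0.63 (SE 0.14, adjusted p = 0.0151) at 1 h against 0 h. Its 1 h and 6 h values overlapped and all lay above 0 h. B230354K17Rik, which reached 5 FPKM at 0 h only, averaged 5.72 ± 0.326, 4.15 ± 0.324 and 4.31 ± 0.447 FPKM at 0, 1 and 6 h (SD, n = 3 each), with -0.38 (adjusted p = 0.0323). Gm14149 and 1300002E11Rik were called in no comparison, at mean levels of 6.48 ± 1.75, 7.74 ± 0.799 and 5.97 ± 0.418 FPKM at 0, 1 and 6 h and 8.37 ± 0.511, 7.81 ± 0.982 and 7.3 ± 0.682 FPKM at 0, 1 and 6 h (SD, n = 3 each).

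The windows below show where the letters fall in 3 members with the full element and in 2 of the strongly changing members, the peaking E330017L17Rik and the late riser Gm12648. Capitals mark TGACGTCA (and TGACG), the NR5A motif in E330017L17Rik, and in Gm12648 the AP-1 motif and TGACG read on the other strand. They are from RefSeq, build GRCm38.p6, at chr12:109540746-109541045, plus strand for Meg3, chr11:88718393-88718692, plus strand for C030037D09Rik, chr17:45433581-45433880, plus strand for B230354K17Rik, chr4:129905976-129906275, plus strand for E330017L17Rik and chr4:94425539-94425838, minus strand for Gm12648. The full element begins 57 bases before the start in Meg3, 204 in C030037D09Rik and 37 in B230354K17Rik. Log2 changes at 6 h against 0 h were 3.84 for Gm15767, 2.75 for 1700057H21Rik and 2.18 for 5330416C01Rik. The windows of these genes held none of the searched motifs except CCAAT. E330017L17Rik and Gm12648 therefore do not stand for all strongly changing members.
Meg3: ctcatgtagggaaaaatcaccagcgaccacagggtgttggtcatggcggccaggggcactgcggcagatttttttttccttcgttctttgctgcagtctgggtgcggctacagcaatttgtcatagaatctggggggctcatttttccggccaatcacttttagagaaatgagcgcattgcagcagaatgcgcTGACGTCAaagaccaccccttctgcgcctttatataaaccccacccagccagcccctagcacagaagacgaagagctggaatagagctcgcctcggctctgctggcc
C030037D09Rik: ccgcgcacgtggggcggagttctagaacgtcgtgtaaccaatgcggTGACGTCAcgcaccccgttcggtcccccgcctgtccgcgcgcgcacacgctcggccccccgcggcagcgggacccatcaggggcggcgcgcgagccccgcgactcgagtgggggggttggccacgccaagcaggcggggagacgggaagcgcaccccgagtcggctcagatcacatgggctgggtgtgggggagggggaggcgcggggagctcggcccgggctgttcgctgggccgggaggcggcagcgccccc
B230354K17Rik: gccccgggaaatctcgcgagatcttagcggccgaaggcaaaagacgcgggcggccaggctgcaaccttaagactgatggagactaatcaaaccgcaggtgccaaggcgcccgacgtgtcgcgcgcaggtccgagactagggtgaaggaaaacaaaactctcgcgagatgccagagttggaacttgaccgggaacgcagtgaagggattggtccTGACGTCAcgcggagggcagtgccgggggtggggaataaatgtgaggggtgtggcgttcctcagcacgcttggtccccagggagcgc
E330017L17Rik: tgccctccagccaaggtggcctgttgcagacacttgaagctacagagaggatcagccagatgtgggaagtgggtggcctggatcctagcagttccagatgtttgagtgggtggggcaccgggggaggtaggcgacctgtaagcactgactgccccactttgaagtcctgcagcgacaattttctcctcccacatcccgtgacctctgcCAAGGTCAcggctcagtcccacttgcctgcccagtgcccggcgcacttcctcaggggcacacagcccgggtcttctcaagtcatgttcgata
Gm12648: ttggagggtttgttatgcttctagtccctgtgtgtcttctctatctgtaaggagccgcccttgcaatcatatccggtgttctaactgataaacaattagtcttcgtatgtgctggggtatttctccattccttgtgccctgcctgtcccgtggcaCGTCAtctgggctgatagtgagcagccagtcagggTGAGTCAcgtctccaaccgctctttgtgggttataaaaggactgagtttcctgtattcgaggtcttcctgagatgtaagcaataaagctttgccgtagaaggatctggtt

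At 6 h against 0 h, 22 of the 38 assembled loci were higher and 11 lower, and of the 120 identified members 23 were higher and 36 lower. Of all genes tested, 28.8% were higher and 27.9% lower. Many of these loci entered through a single time, and the difference between the classes was not tested. XLOC_024402 had 0.178, 0.259 and 0.0324 FPKM at 0 h, 1.03, 0.982 and 3.28 FPKM at 1 h and 18.3, 22.9 and 14.4 FPKM at 6 h, with all 6 h values far above the rest and a log2 change of 4.40 (SE 0.29, adjusted p = 1.4e-06). XLOC_023305 had 0.0656, 0.198 and 0 FPKM at 0 h, 0.15, 0.0365 and 0.0778 FPKM at 1 h and 11.7, 15.4 and 13.5 FPKM at 6 h, again high at 6 h alone, with 3.74 (SE 0.13, adjusted p = 4.69e-08). Both loci reached 5 FPKM in 6 h libraries only, so these changes describe what the rule selected. Of the falling loci, XLOC_055167 was the highest in level, at 126 ± 23.8, 131 ± 13 and 78 ± 15.4 FPKM at 0, 1 and 6 h (SD, n = 3 each), with -0.68 (adjusted p = 0.00431). XLOC_050390 averaged 7.23 ± 1.88, 9.03 ± 2.04 and 1.07 ± 0.373 FPKM at 0, 1 and 6 h (SD, n = 3 each), with -1.98 (adjusted p = 3.03e-05).

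A few members varied within a time as much as between times. One assembled locus had 124, 0 and 0 FPKM at 0 h, 42.2, 92.6 and 0 FPKM at 1 h and 13.9, 0 and 0 FPKM at 6 h, and zeros and high values stood side by side at every time. 1810063I02Rik had 1.91, 4.51 and 16.7 FPKM at 0 h, 8.88, 6.26 and 0 FPKM at 1 h and 2.22, 2.36 and 0 FPKM at 6 h, without order among the times. Yam1 had 6.77, 12.8 and 1.2 FPKM at 0 h, 2.82, 6.69 and 6.53 FPKM at 1 h and 9.46, 10.5 and 7.84 FPKM at 6 h, and all of its exon bases lie within an annotated ribosomal RNA gene, so its level cannot be told apart from leftover ribosomal RNA. None of these 3 was called in any comparison. Gm26906 lies wholly opposite exons of Meg3 and had a log2 change of -0.70 (SE 0.17, adjusted p = 0.00622) at 6 h against 1 h, beside -0.49 for Meg3.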

How the data were processed

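The deposited files hold FPKM per row and library, 54759 rows in each of 9 files, computed by the authors. The submitters' processing notes name the aligner HISAT2 2.0.5 and mm10 as the build. What software estimated the FPKM values, with which gene models and with what use of strand, is not given in the sources used here. Single reads could not be recovered from the values. Depth is therefore unknown, intervals from counting are absent, and a listed 0 can stand for a value that was not estimated.

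Rows were summed per gene identifier. Membership used the rows typed lincRNA. The tests used all rows of a gene, and 5 members also had rows of another type. With limma 3.58.1 under R 4.3.3, log2(FPKM + 1) was fitted for the 14535 genes that had 1 FPKM or more in 3 libraries or more. One fit of 3 group means over 9 libraries was used, with 6 residual degrees of freedom, a trended prior variance, no covariate and Benjamini-Hochberg adjustment over all genes tested. The fit was tested on simulated data. Coordinates are from GENCODE M21.

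The members, the gene lists and the tests were chosen with earlier results of these data known. Members were named by rule: up to 8 called members with the highest and 8 with the lowest log2 change in each comparison whose groups did not overlap, the 8 of highest mean, and the lists of small nucleolar RNA hosts, microRNA hosts, imprinted or X-linked and other characterised lincRNAs. Of the 45 named so, 33 have a gene symbol, and assembled loci were limited to 4. Members named for an overlap, a neighbour, a promoter motif, a smaller peak or a wide spread were chosen after their values were seen. Alternatives changed the pseudocount, the filter, the scaling, the row used, the prior trend, the libraries fitted, the member threshold and the replicate left out.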

Additional observations from a re-analysis of the deposited data

How the results depend on the processing

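Counts of members called stayed within 1.5 times the reported 40, 92 and 105 (1 h against 0 h, 6 h against 0 h, 6 h against 1 h) under every pseudocount, filter, scaling, row choice and left-out library tried. With a library left out they ran from 29 to 46, 78 to 94 and 86 to 108. Changing the members changed the counts: at 2 FPKM there were 311 members with 70, 180 and 180 called, at 10 FPKM 74 members with 25, 45 and 54 called, at 5 FPKM in all 9 libraries 67 with 16, 31 and 37 called, and among the 54 that share no exon base, an alternative added after seeing the data, 13, 31 and 33 were called. The shares called were 25.3%, 58.2% and 66.5% of the 158, and 22.5%, 57.9% and 57.9% at 2 FPKM, 33.8%, 60.8% and 73.0% at 10 FPKM, 23.9%, 46.3% and 55.2% at 5 FPKM in all 9 libraries, and 24.1%, 57.4% and 61.1% among the 54. At 2 FPKM, 38 were higher and 32 lower at 1 h against 0 h. The cause of these shifts was not tested. Of all 14535 genes tested, 15.7%, 56.6% and 53.5% were called in the same 3 comparisons. Of the 10438 genes at 5 FPKM or more in at least 3 libraries, the shares were 17.4%, 61.5% and 58.4%. Shares of genes of every type at 2 and 10 FPKM were not counted. Over all genes, 2276 were called at 1 h against 0 h (1407 higher, 869 lower) and 3636 with libraries scaled to the mean sum (1002 higher, 2634 lower). Leaving out a library gave 1199 to 2824 there, 6863 to 8406 at 6 h against 0 h and 6374 to 7703 at 6 h against 1 h. At 1 h against 0 h the lowest count of genes came without the third 1 h replicate and the highest without the second, and the cause was not tested. Of 94 calls of named members, 77 held under every alternative and 17 ended under at least 1. The sign of 1 reversed: E330017L17Rik at 6 h against 0 h, at 0.46 with only its most abundant row, which leaves out the other 3 rows. The 9 correlations of same-numbered libraries' deviations ran from -0.08 to 0.15. In both other groups, 4 of 9 libraries correlated best with their own number. Whether the numbers pair the samples is therefore not settled. With the replicate block, 38, 92 and 104 members and 1991, 8089 and 7632 genes were called. Unknown depth limits what can be said of members near 0.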
